A study of Mus musculus with 12 samples.

Results

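The genes described here are 7 members of the IL-6 cytokine family and its receptors, the ligands Lif, Osm and Il6 and the receptor chains Il6st, Il6ra, Lifr and Osmr. They are 7 of 31301 genes in the count table. The members were chosen by results of these libraries: Lif and Il6 were picked for their higher level in TSLP-elicited than in IL-3-elicited immature basophils, and the others were added as their relative and their receptors. Lif and Il6 were therefore not tested in any comparison that holds immature libraries, and no member was tested in TSLP against IL-3 immature cells.

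Polyadenylated RNA was sequenced from basophils that had developed in cultures of C57BL/6J WT marrow, kept for 7 days in TSLP (1 µg/mL in the treatment protocol, although the sample characteristics state 1 mg/mL, a conflict that the labels do not settle) or in IL-3 at a dose of 0.3 ng/mL. Both cytokines drive basophil growth. CD200R3+ bone marrow-derived basophils (BMBAs) were sorted into mature FcεRIαlo CD49bhi cells and immature FcεRIαhi CD49blo cells, which the study names pre-basophils. All cells came from cultures of unmanipulated marrow, with 3 libraries for each of the 4 groups (mature and immature cells of TSLP and of IL-3 cultures), and total counts between 1720065 and 3685285 per library.

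Cytokines of the IL-6 family signal through receptors that share the chain gp130, the product of Il6st. IL-6 first binds its own receptor chain, encoded by Il6ra, whereas LIF joins gp130 to the LIF receptor chain (Lifr) and mouse oncostatin M joins it mainly to the oncostatin M receptor chain (Osmr). The assembled receptor activates Janus kinases and the transcription factor STAT3, and SOCS3 is induced as feedback. Stimulated basophils and mast cells are known sources of IL-6, and these ligands act on many tissues.

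The libraries were checked first. Basophil markers (8 of 8 in the table) summed to 7796 to 10990 CPM (read counts scaled by TMM to a common library size) in TSLP mature, 26420 to 29300 in TSLP immature, 9686 to 11760 in IL-3 mature and 36820 to 40590 in IL-3 immature libraries. Mast cell markers (6 of 6) reached at most 8.91 CPM in any library. Itga2, which encodes CD49b, averaged 246.9 CPM in mature and 27.3 in immature cells of IL-3 cultures, and 168.2 and 86.4 CPM in those of TSLP cultures, the direction of the sort. Fcer1a, which encodes FcεRIα, averaged 1023 CPM in mature and 1599 in immature cells of IL-3 cultures. In TSLP cultures it averaged 1263 and 1338 CPM, so the stages differed less there in the RNA of both sort markers. The rows of ribosomal RNA (Rn45s, Rn18s and Rn28s1) held 14.7% to 24.97% of the counts in IL-3 libraries and 17.3% to 40.1% in TSLP libraries. TSLP mature 1 stood apart, with a summed neutrophil marker level of 757.6 CPM against at most 33.5 CPM in the other TSLP mature libraries, and a B lineage marker level of 130.6 CPM against 13.9 and 14.8 CPM. The neutrophil sum was 200.7 to 291.7 CPM in IL-3 mature, 413.0 to 517.8 in TSLP immature and 835.6 to 916.1 CPM in IL-3 immature libraries. Of it, Mpo averaged 333.5 CPM in TSLP immature and 713.6 CPM in IL-3 immature cells. B lineage markers (6 of 6) were higher in all TSLP than in all IL-3 libraries of the same stage, at 13.9 to 130.6 against 1.78 to 2.55 CPM in mature and 24.6 to 31.3 against 5.71 to 6.95 CPM in immature libraries. In sorted bulk samples, fewer cells that express a gene and less RNA of it per cell cannot be told apart.

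Sequences of the ligand genes are shown first. The promoters of Lif and Il6 are given because these genes chose the family, and the AU-rich stretches of all 3 ligands because factors that bind such stretches were measured too. The promoter windows are the bases upstream of the RefSeq start sites (GRCm38.p6, plus strand), at chr11:4257318-4257556 for Lif, ended where the annotated exon begins, and at chr5:30012864-30013113 for Il6. Capitals mark matches to AP-1 (TGANTCA), the TGACG core of the cAMP response element, NF-kB and C/EBP (TTGCNNAA), searched on both strands, so that CGTCA is TGACG read from the other strand. Osm has no entry among these promoters.

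Lif promoter: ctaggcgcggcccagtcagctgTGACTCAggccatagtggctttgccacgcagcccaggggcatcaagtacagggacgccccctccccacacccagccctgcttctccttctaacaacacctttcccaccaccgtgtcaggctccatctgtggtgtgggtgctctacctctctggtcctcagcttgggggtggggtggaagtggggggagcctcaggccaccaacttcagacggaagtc

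Il6 promoter: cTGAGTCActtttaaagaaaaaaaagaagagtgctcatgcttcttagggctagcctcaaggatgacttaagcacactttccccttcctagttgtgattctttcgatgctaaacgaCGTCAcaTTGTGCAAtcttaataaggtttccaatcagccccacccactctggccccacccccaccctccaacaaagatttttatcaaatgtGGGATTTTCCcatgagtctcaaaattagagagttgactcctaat

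An AP-1 match began at position -228 of Lif and at -249 of Il6, counted from the RefSeq start site, and 6.75% of the 32851 RefSeq promoter windows held such a match. Il6 alone also held a TGACG core at -135 (17.8% of windows), a C/EBP match at -128 (9.56%) and an NF-kB match at -44 (3.90%). The STAT motif TTCNNNGAA, held by 7.02% of windows, had 0 matches in these 2 windows, in which the search covered the 250 bases before the start. The sequence of Lif is printed for 239 of them. These are matches of letters in a short window, not measured binding sites.

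The second set shows the 30 bases of each ligand's 3′ untranslated region that hold the most TATTTAT heptamers (GRCm38, plus strand), with each ATTTA in capitals. They lie at chr11:4270474-4270503 for Lif, chr11:4240940-4240969 for Osm and chr5:30019716-30019745 for Il6.

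Lif AU-rich window: gctgtctATTTAttactatgtcctATTTAt

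Osm AU-rich window: atccgttttatATTTAtaaggcctATTTAt

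Il6 AU-rich window: actttaagttaATTTAtgattgatATTTAt

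The whole region held 7 ATTTA in 3180 bases for Lif, 6 in 1017 bases for Osm and 6 in 427 bases for Il6. The Il6 density of 14.1 per kb was reached by 0.306% of 19272 mouse genes, that of Osm (5.90 per kb) by 5.23% and that of Lif (2.20 per kb) by 33.8%. TATTTAT, which contains ATTTA, occurred 5 times in Lif, 3 times in Osm and 1 time in Il6. Of genes with a region of like length, 1.52%, 2.2% and 11.1% held at least as many, and 56.0%, 25.3% and 11.1% held at least 1. The receptor chains held no TATTTAT.

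Whether the ligands differed between mature cells of both cultures was asked next, in libraries that had no part in the choice of the members. Lif encodes leukaemia inhibitory factor, which keeps mouse embryonic stem cells undifferentiated and acts on many tissues. It measured 25.7, 32.1 and 37.4 CPM in the IL-3 mature libraries and 147.0, 222.1 and 175.4 CPM in the TSLP mature libraries. All TSLP mature libraries lay above all IL-3 mature libraries. The level was 5.79-fold higher in TSLP mature cells (95% exact binomial interval 5.06 to 6.65), with a log2 fold change of 2.52 ± 0.22 (SE) and an adjusted p of 9.44e-06 (edgeR quasi-likelihood test, Benjamini-Hochberg over 10861 genes). The B lineage markers given above also differed between these groups, and their part in the level of Lif was not tested. Without TSLP mature 1 the log2 fold change was 2.57, and without the ribosomal RNA rows it was 2.44. With only the mature groups fitted it was 2.49 (adjusted p = 0.0018, edgeR).

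Osm encodes oncostatin M, a cytokine of activated blood cells that acts on stromal cells and hepatocytes. It measured 1358, 1231 and 1253 CPM in the IL-3 mature libraries and 1255, 1221 and 1399 CPM in the TSLP mature libraries, so that the groups overlapped. The log2 fold change was 0.01 (95% interval -0.39 to 0.42, adjusted p = 0.972, edgeR), which leaves no direction, and its sign turned with the scaling of the libraries. Il6 measured 436.3, 332.9 and 351.3 CPM in IL-3 mature and 647.8, 427.8 and 624.9 CPM in TSLP mature libraries. TSLP mature 2 lay within the IL-3 range and the other TSLP mature libraries above it. The log2 fold change of Il6 was 0.60 ± 0.22 (SE), and its adjusted p of 0.0534 (edgeR) did not pass the threshold. It fell on either side of 0.05 under other settings, from 0.0291 to 0.224.

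**Figure D1:**
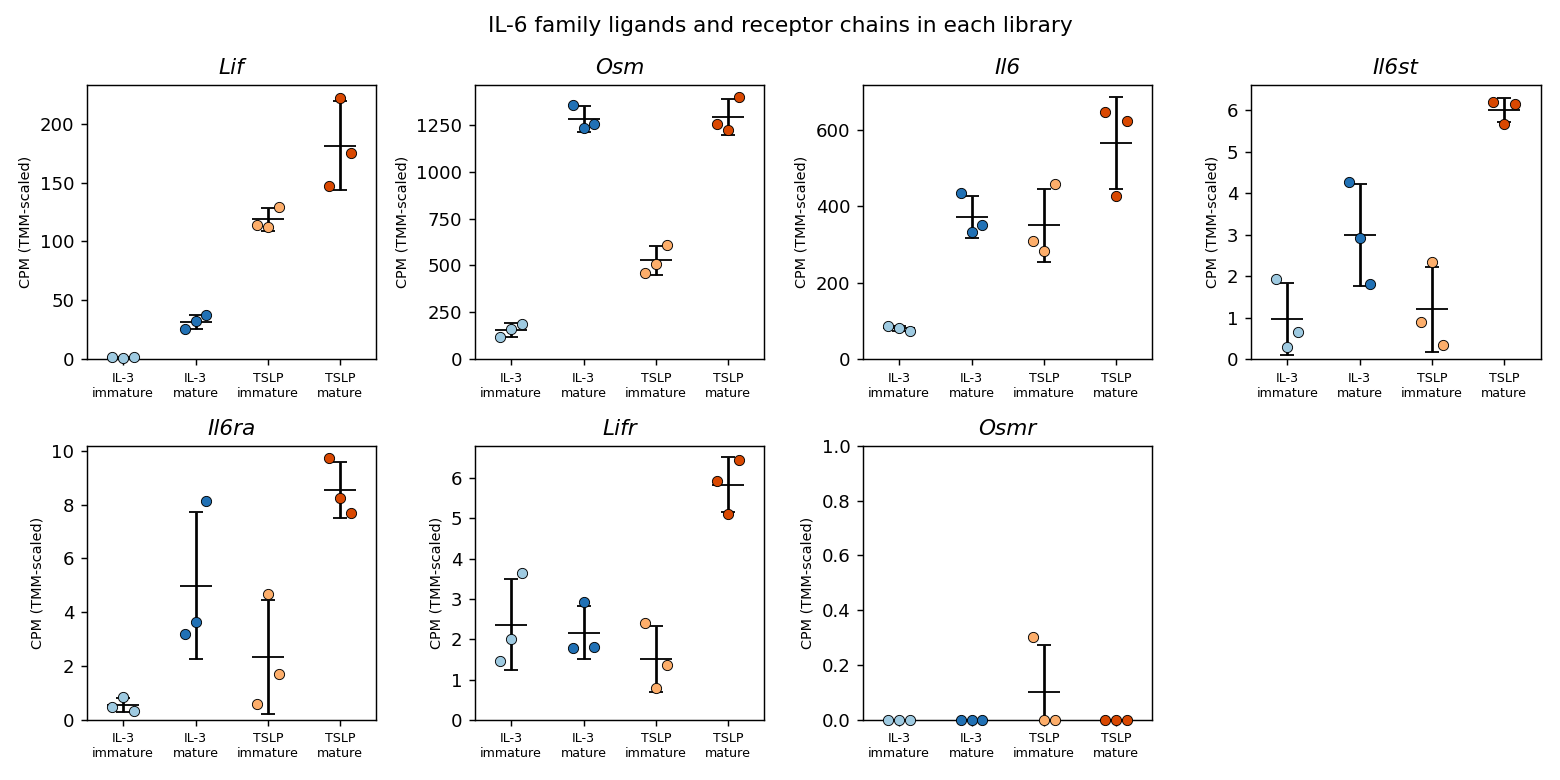
Level of each member (CPM, TMM-scaled, linear axes from 0) in the 4 groups, with 1 point per library and bars for the mean ± SD of 3 libraries. Lif in the TSLP mature libraries (147.0 to 222.1 CPM) stood above all IL-3 libraries, whereas Osm had like levels in both mature groups and Osmr was at 0 in all but 1 library.

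Of the 6 members that could be tested, Lif and Lifr were called in mature cells, beside 24.3% of the 10861 genes tested (1345 higher and 1289 lower in TSLP, or 1019 higher and 1491 lower without the ribosomal RNA rows). Osmr did not pass the filter on low counts. The filter asks for 3 libraries of any group at or above 3.25 CPM. Il6ra reached this limit in 2 IL-3 mature and 1 TSLP immature library and in all TSLP mature libraries, so it passed without the TSLP mature group too. Il6st and Lifr passed only through the TSLP mature group. In comparisons with that group, Il6st and Lifr were therefore tested because they were high there. No count of called members is read against the background for this reason. Lifr, the LIF receptor chain, measured 1.78, 2.91 and 1.80 CPM in IL-3 mature and 5.94, 5.11 and 6.46 CPM in TSLP mature libraries, which did not overlap. It was 2.66-fold higher in TSLP mature cells (95% exact binomial interval 1.53 to 4.86) from 61 against 17 counts, with a log2 fold change of 1.40 ± 0.44 (SE) and an adjusted p of 0.0288 (edgeR). Without the filter, over 22634 genes, the adjusted p was 0.0467. The call rests on few counts and was lost when any of 5 of the mature libraries was left out (adjusted p 0.0550 without TSLP mature 1, 0.0856 without TSLP mature 3, and 0.1001, 0.0557 and 0.109 without IL-3 mature 1, 2 and 3).

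Il6st, which encodes the shared chain gp130, had 1 to 23 counts in a library. It measured 4.27, 2.91 and 1.80 CPM in IL-3 mature and 6.20, 5.67 and 6.15 CPM in TSLP mature libraries, without overlap. Its log2 fold change of 0.97 (95% interval -0.05 to 1.98) did not pass the test (adjusted p = 0.155, edgeR). Il6ra, the chain that binds IL-6, measured 3.21, 3.64 and 8.12 CPM in IL-3 mature and 9.71, 8.23 and 7.69 CPM in TSLP mature libraries, with IL-3 mature 3 inside the TSLP range. Its log2 fold change was 0.81 (95% interval -0.18 to 1.80, adjusted p = 0.22, edgeR). Exons of Il6ra overlap the gene Gm42809 on the opposite strand, and reads of the pair were not separated here.

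Some markers of macrophages were, like the receptor chains, highest in TSLP mature cells. The sum of the monocyte and macrophage markers (7 of 7 in the table, none at 0 in a group) was 414.9 to 519.0 CPM in IL-3 mature, 352.3 to 418.2 in TSLP mature, 77.5 to 104.3 in IL-3 immature and 161.2 to 180.1 in TSLP immature libraries. Ccr2, a chemokine receptor that basophils also express, made up 340.3 CPM of it in IL-3 mature and 118.4 CPM in TSLP mature cells. Ms4a7 averaged 4.21 CPM in IL-3 mature and 3.88 CPM in TSLP mature cells. The complement gene C1qb averaged 23.4 CPM in TSLP mature against 7.09 CPM in IL-3 mature cells, and Csf1r, the receptor of a macrophage growth factor, 29.1 against 16.9 CPM. Between the same groups Adgre1 averaged 195.4 against 93.8 CPM, C1qa 6.00 against 1.945 CPM and Mrc1 11.2 against 0.865 CPM. The part of such cells in the levels of Il6st, Il6ra and Lifr was not tested.

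Levels of different genes were compared per kb of the principal annotated transcript. In TSLP mature cells the mean was 568.5 CPM per kb for Osm, 496.8 for Il6 and 45.1 for Lif, against 2.56 for Il6ra, 0.693 for Il6st and 0.604 for Lifr. With the longest annotated transcript the value of Il6 was 241.9 and that of Il6ra 0.989 CPM per kb. The ligands therefore stood above the receptor chains in this group on either length. In IL-3 immature cells Lif, at 0.318 CPM per kb, was near the receptor chains on this scale, with Il6st at 0.111 and Lifr at 0.245 CPM per kb. Without division by length the means in these cells were 1.28 CPM for Lif, 0.963 for Il6st and 2.37 for Lifr. Whether reads covered the transcripts evenly was not tested.

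Osmr had 0 counts in all IL-3 libraries and in the TSLP mature libraries and 1 count in TSLP immature 1. A count of 0 over a group allows a level of up to 0.286 CPM in TSLP mature, 0.386 in IL-3 mature and 0.35 in IL-3 immature cells (3 counts over the group, counting error only). Transcripts of the oncostatin M receptor chain were thus not detectable at this depth, while those of its ligand measured 115.0 CPM or more in every library.

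In immature cells the comparison of TSLP with IL-3 is the one that chose Lif and Il6, and its values are given as a description. Lif had 4, 2 and 4 counts in the IL-3 immature and 380, 287 and 381 counts in the TSLP immature libraries, that is 1.94, 0.571 and 1.32 against 114.3, 112.1 and 129.7 CPM. The ratio was 102 (95% exact binomial interval 55.2 to 213) and rests on 10 counts in IL-3 immature cells. Il6 measured 85.9, 81.4 and 73.5 CPM in IL-3 immature and 308.8, 282.5 and 459.6 CPM in TSLP immature libraries, a ratio of 4.41 (4.06 to 4.80). These are the values that led to the choice of both genes.

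Osm measured 115.0, 162.0 and 186.1 CPM in IL-3 immature and 461.5, 508.3 and 609.1 CPM in TSLP immature libraries, a ratio of 3.29 (3.10 to 3.501). All TSLP immature libraries lay above all IL-3 immature libraries for each ligand. The fitted log2 differences were 6.61 ± 0.32 for Lif, 2.13 ± 0.23 for Il6 and 1.77 ± 0.20 for Osm (SE). The receptor chains overlapped between these groups, with means of 0.963 against 1.20 CPM for Il6st, 0.558 against 2.33 CPM for Il6ra and 2.37 against 1.52 CPM for Lifr in IL-3 and TSLP immature cells. Over all genes, 13.3% were called in this comparison, and nothing is read from the members against that share.

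The balance of the ligands within one library is given as a description, since the immature values of Lif and Il6 led to their choice. The count of Osm was 59.2 to 283.5 times that of Lif in immature and 33.5 to 52.9 times in mature libraries of IL-3 cultures, but 4.04 to 4.70 times and 5.50 to 8.53 times in those of TSLP cultures. These ratios do not depend on library scaling, but those of the IL-3 immature libraries rest on 2 to 4 counts of Lif. The ratio of Osm to Il6 ranged from 1.34 to 2.53, from 3.11 to 3.696, from 1.32 to 1.80 and from 1.94 to 2.85 in the same order of groups. Mature libraries of either cytokine had the higher ratio of Osm to Il6 than immature libraries of the same cytokine.

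How the members differed between the stages was then examined within each culture. In IL-3 cultures the 3 immature libraries of Osm (115.0 to 186.1 CPM) lay below the 3 mature ones (1231 to 1358 CPM), an 8.06-fold higher level in mature cells (95% exact binomial interval 7.62 to 8.54). The immature minus mature log2 difference was -3.05 ± 0.21 (SE, adjusted p = 1.13e-08, edgeR). In TSLP cultures the difference was smaller, 461.5 to 609.1 against 1221 to 1399 CPM, a 2.46-fold higher level in mature cells (2.38 to 2.54) with a log2 difference of -1.30 ± 0.20 (SE, adjusted p = 0.000144, edgeR). The difference between both log2 differences was 1.75 ± 0.28 (SE, adjusted p = 0.00203, edgeR), so the stage difference of Osm was larger in IL-3 cultures. Osm stayed called in 21 of 21 alternatives in IL-3 cultures, 21 of 21 in TSLP cultures and 20 of 20 for the difference. The summed monocyte and macrophage markers given above were also lowest in IL-3 immature, then in TSLP immature and higher in mature cells, and their part in the levels of Osm was not tested. Itga2 and Fcer1a also differed less between the stages in TSLP cultures, and the part of the sort in the stage difference of Osm was not tested.

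Il6ra was lower in immature cells of both cultures. Its counts were 1, 3 and 1 in IL-3 immature against 9, 10 and 18 in IL-3 mature libraries (log2 difference -2.98 ± 0.71, SE, adjusted p = 0.00259, edgeR). They were 2, 12 and 5 in TSLP immature against 36, 29 and 25 in TSLP mature libraries (log2 difference -1.93 ± 0.51, SE, adjusted p = 0.0112, edgeR). Without the filter, over 22634 genes, the adjusted p in TSLP cultures was 0.000674. That fit holds other genes and estimates the spread anew, so the smaller p is not read as a firmer result. The groups did not overlap in CPM in either culture, and the TSLP call was lost without TSLP immature 1 (adjusted p = 0.0847) or TSLP immature 3 (0.0536).

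Il6st followed the same direction. Its counts were 4, 1 and 2 in IL-3 immature against 12, 8 and 4 in IL-3 mature libraries, which overlapped in CPM (log2 difference -1.82 ± 0.66, SE, adjusted p = 0.0337, edgeR). They were 3, 6 and 1 in TSLP immature against 23, 20 and 20 in TSLP mature libraries without overlap (log2 difference -2.35 ± 0.55, SE, adjusted p = 0.00539, edgeR). The IL-3 call was lost when 1 of 6 libraries was left out, namely IL-3 mature 1 or 2, IL-3 immature 2 or 3, TSLP mature 2 or TSLP immature 1, with an adjusted p of up to 0.179. The TSLP call held in 20 of 20 alternatives, but Il6st was tested there because it was high in TSLP mature cells. Without the filter the adjusted p was 0.000792, which comes from another fit and is not read as a firmer result.

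Lifr had no clear direction in IL-3 cultures. It had 3, 7 and 11 counts in IL-3 immature and 5, 8 and 4 counts in IL-3 mature libraries, a log2 difference of 0.15 (95% interval -0.90 to 1.20, adjusted p = 0.828, edgeR). In TSLP cultures it had 8, 2 and 4 counts in immature against 22, 18 and 21 in mature libraries (log2 difference -1.87 ± 0.45, SE, adjusted p = 0.006, edgeR). Lifr too was tested because of its TSLP mature level, and without the filter the adjusted p was 0.00657. The difference of both stage differences, -2.02 ± 0.67 (SE), did not pass the test (adjusted p = 0.11, edgeR). Those of Il6ra (1.05, adjusted p = 0.595) and Il6st (-0.53, adjusted p = 0.832) did not pass it either.

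**Figure D2:**
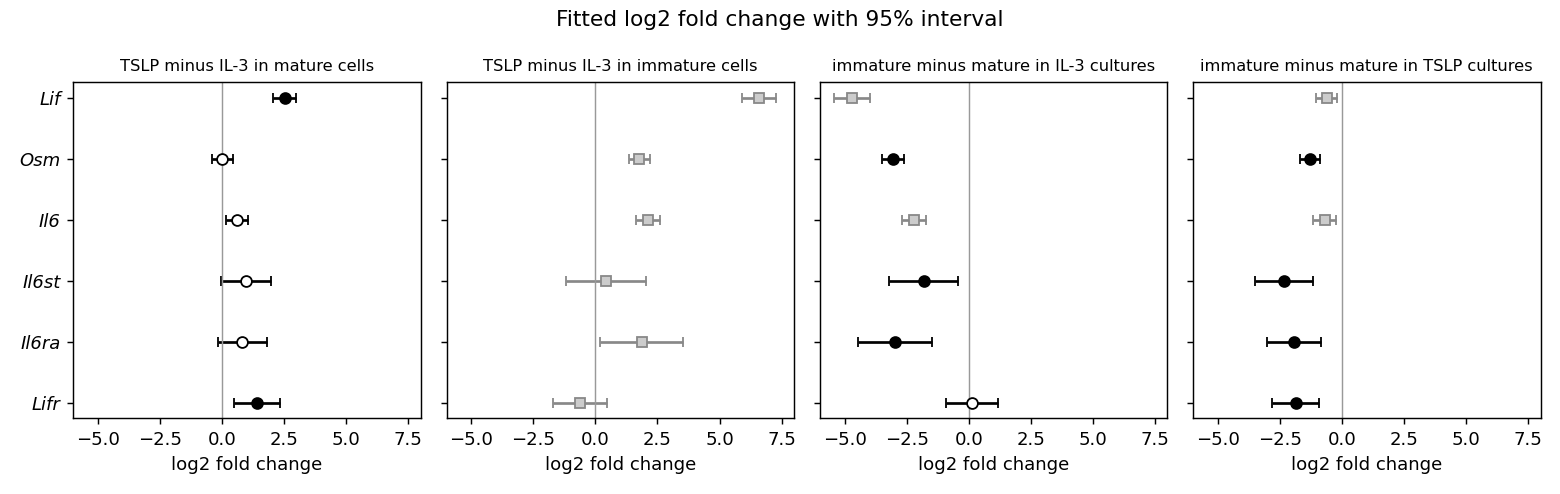
Fitted log2 fold change with its 95% interval for the 6 members with enough counts, in the 4 pairwise comparisons. Filled circles passed the test, open circles did not, and grey squares were not tested because the members were chosen on those libraries; Lif in mature cells lies at 2.52 and Osm in IL-3 cultures at -3.05.

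Of the 4 members tested in these stage comparisons, Osm, Il6ra and Il6st were called in IL-3 cultures, where 46.2% of all genes were, and Osm, Il6ra, Il6st and Lifr in TSLP cultures, where 25.1% were. Osm was the 1 member called in the interaction, where 4.19% of all genes were. Il6st and Lifr passed the filter only through their TSLP mature level, so no count of called members is read against these shares. Lif and Il6 hold the choosing libraries and are given without a test. Lif was 26.8-fold higher in IL-3 mature than in IL-3 immature cells (95% exact binomial interval 14.3 to 56.7) and 1.52-fold higher in TSLP mature than in TSLP immature cells (1.41 to 1.65). Il6 was 4.71-fold (4.33 to 5.13) and 1.61-fold (1.54 to 1.69) higher in mature cells of these cultures.

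The order of the 4 groups differed among the ligands. It is given as a description, since the immature values of Lif and Il6 led to the choice of both genes. For Lif, both IL-3 groups (immature, then mature) lay below both TSLP groups (immature, then mature), with no overlap between neighbours. For Osm it was IL-3 immature, TSLP immature and then both mature groups, which overlapped. For Il6 it was IL-3 immature, then TSLP immature and IL-3 mature, which overlapped, and then TSLP mature, which overlapped with IL-3 mature and with TSLP immature.

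Genes with a like pattern over the 12 libraries were sought by the Pearson r of log2 CPM, as a description, since all points share the 4 groups. Nearest to Lif were Pdzd4 (r = 0.992), Nampt (0.981) and Pilrb2 (0.98). Nampt, an enzyme of NAD synthesis, averaged 186.9 CPM in TSLP mature, 124.6 in TSLP immature, 79.7 in IL-3 mature and 21.9 in IL-3 immature cells, the same order as Lif. Nearest to Osm were the chemokine gene Ccl4 (r = 0.995), the metalloprotease gene Adam8 (0.993) and the adaptor gene Skap1 (0.99). Ccl4 averaged 1130, 376.8, 946.5 and 105.2 CPM in the same order of groups. Nearest to Il6 were Cd300lf (0.977), Rab19 (0.977) and Asb2 (0.975). Nearest to Il6ra were Ell (0.939), Zbtb9 (0.937) and Ulk3 (0.935), and nearest to Il6st were the fibronectin gene Fn1 (0.914), Chil3 (0.912) and Evl (0.903). Fn1 and Chil3 are also strongly expressed by macrophages, and both were highest in TSLP mature cells (31.7 and 104.9 CPM).

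Lif (chromosome 11, 4257557 to 4272514) and Osm (4236420 to 4241026) are neighbours on the plus strand of GRCm38, 16.5 kb apart with 0 protein-coding genes between them. Castor1, a sensor of arginine next to Osm, was lower in immature cells of both cultures (log2 difference -2.44 ± 0.41 in IL-3, adjusted p = 0.000148, and -1.47 ± 0.33 in TSLP, adjusted p = 0.00411, edgeR) and averaged 13.9 CPM in TSLP mature cells. Its difference between mature cells, 0.43, did not pass the test (adjusted p = 0.33). Castor1 was higher in TSLP than in IL-3 immature cells (1.40 ± 0.44, adjusted p = 0.0472, edgeR). The splicing factor gene Sf3a1 was higher in mature cells of TSLP than of IL-3 cultures (log2 fold change 1.03 ± 0.20, adjusted p = 0.00254, edgeR). But it was higher in immature than in mature cells of IL-3 (1.48 ± 0.20, adjusted p = 1.72e-05) and TSLP cultures (0.64 ± 0.18, adjusted p = 0.0147, edgeR). Tbc1d10a and Mtmr3 passed the test in none of the 4 pairwise comparisons (adjusted p from 0.11 to 0.966), and Hormad2 averaged at most 0.958 CPM in a group and was not tested.

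Lifr (chromosome 15, 7090614 to 7197489, plus strand) and Osmr (6813577 to 6874969, minus strand) also have 0 protein-coding genes between them, with 215.6 kb from gene to gene. C9 and Gdnf had 0 counts in all libraries and Egflam at most 0.272 CPM in a group mean. Rictor (30.1 to 34.9 CPM over the groups) and Wdr70 passed the test in none of the 4 pairwise comparisons. Fyb, an adaptor of immune cells, was lower in mature cells of TSLP than of IL-3 cultures (log2 fold change -0.96 ± 0.17, adjusted p = 0.00144, edgeR), the direction opposite to that of Lifr. Fyb was also lower in immature than in mature cells of IL-3 cultures (-0.75 ± 0.17, adjusted p = 0.00187, edgeR). Il6 lies on chromosome 5 (30013114 to 30019981, plus strand), Il6st on chromosome 13 (112464070 to 112510086, plus strand) and Il6ra on chromosome 3 (89864059 to 89913196, minus strand).

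**Figure D3:**
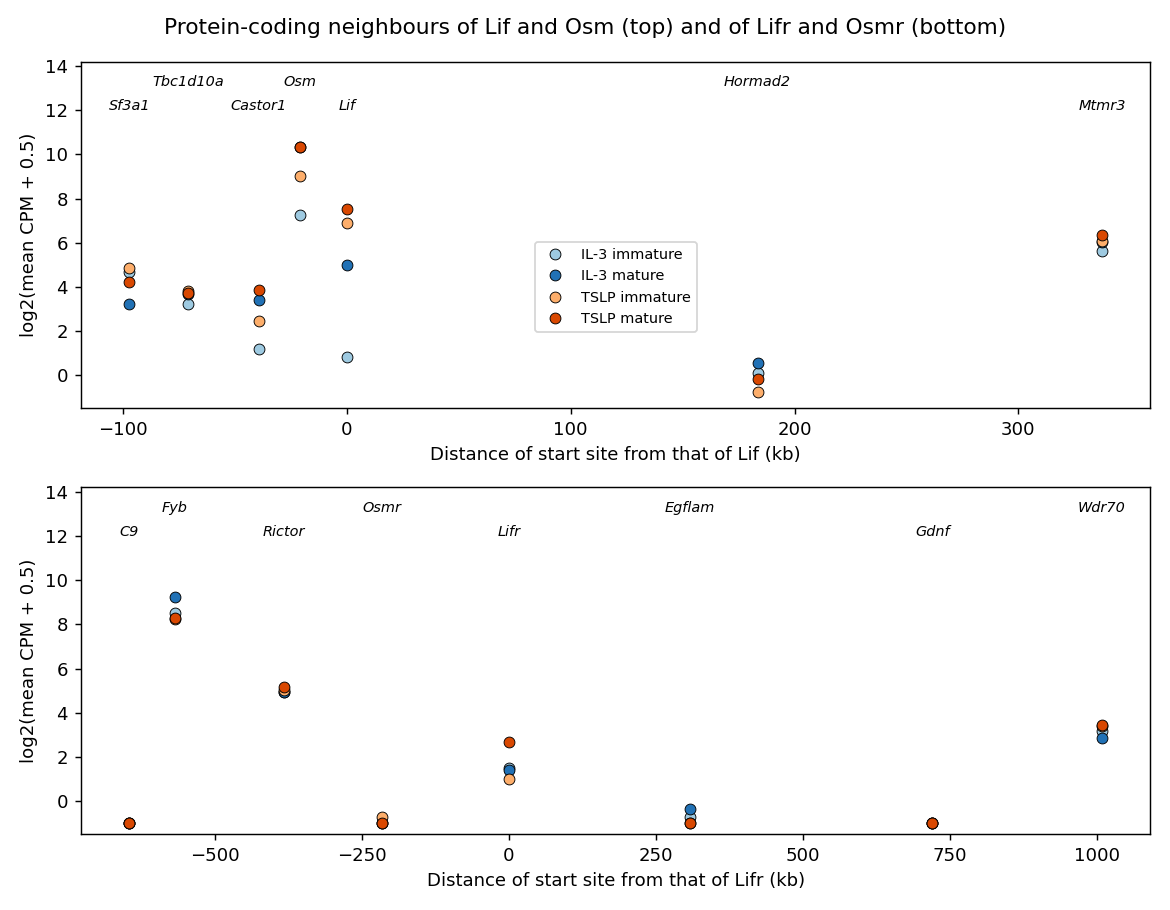
Mean level of each protein-coding gene around Lif and Osm (top) and around Lifr and Osmr (bottom), as log2 of the group's mean CPM plus 0.5, against the distance of its start site from that of Lif or Lifr in kb. Colours mark the 4 groups. The 4 groups are far apart for Lif (1.28 to 181.5 CPM) and close together for genes such as Mtmr3 (48.93 to 79.98 CPM) and Rictor (30.1 to 34.9 CPM), and levels are not scaled by gene length.

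The rest of the pathway was described with 60 genes in 6 lists, of which 47 could be tested. Other ligands of the family were scarce. Of 9 listed, Cntf, Clcf1 and Ebi3 were tested, and Il11, Ctf1 and Il27 averaged at most 0.391 CPM in any group. Clcf1, cardiotrophin-like cytokine, measured 0.485, 0.286 and 0.993 CPM in IL-3 immature, 5.41, 7.42 and 3.41 in TSLP immature, 3.21, 9.11 and 9.47 in IL-3 mature and 12.9, 7.09 and 7.08 CPM in TSLP mature libraries. It was higher in TSLP than in IL-3 immature cells (log2 fold change 3.11 ± 0.65, adjusted p = 0.00589) and lower in immature than in mature IL-3 cells (-3.53 ± 0.64, adjusted p = 0.000285, edgeR).

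Of the 4 other receptor chains, Il11ra1 and Il27ra were tested. Il27ra, the IL-27 receptor chain that also pairs with gp130, measured 7.84, 6.19 and 4.06 CPM in IL-3 mature and 25.9, 20.7 and 27.1 CPM in TSLP mature libraries. It was higher in TSLP mature cells (log2 fold change 1.996 ± 0.28, adjusted p = 0.000322, edgeR) and lower in immature than in mature TSLP cells (-0.74 ± 0.25, adjusted p = 0.0401).

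Of the 9 signal transduction genes tested, 0 were called between TSLP and IL-3 cells at either stage by edgeR, with 3 in mature and 4 in immature cells at an unadjusted p under 0.05, and 1 and 0 called by DESeq2. In the stage comparisons 4 were lower in immature than in mature cells of IL-3 cultures and 2 were so in TSLP cultures. Stat3 itself averaged 34.8 CPM in IL-3 mature and 48.4 CPM in TSLP mature cells, a log2 difference of 0.47 that did not pass the test (adjusted p = 0.102). The adaptor gene Gab2 (-1.33 ± 0.19, adjusted p = 3.89e-05) and the kinase gene Jak2 (-1.16 ± 0.22, adjusted p = 0.000488) had the largest differences in IL-3 cultures, and Gab2 (-0.74, adjusted p = 0.00987) and Jak1 (-0.66, adjusted p = 0.0216) in TSLP cultures.

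Of the 8 genes of feedback and negative regulation, Socs3 and Socs1, inhibitors of Janus kinase signalling, had the largest differences. Socs3 measured 5.34, 5.71 and 5.63 CPM in IL-3 immature, 26.2, 36.3 and 36.1 in TSLP immature, 257.5, 248.1 and 281.0 in IL-3 mature and 146.5, 160.6 and 163.1 CPM in TSLP mature libraries. No groups overlapped, and the cytokine difference had opposite signs at the stages. Socs3 was higher in TSLP than in IL-3 cells when immature (log2 fold change 2.54 ± 0.21, adjusted p = 1.16e-06) and lower when mature (-0.74 ± 0.16, adjusted p = 0.00428, edgeR), and the difference itself was 3.29 (adjusted p = 4.49e-06). Socs1 was higher in TSLP than in IL-3 immature cells (2.24 ± 0.26, adjusted p = 5.20e-05), and its mature difference of 0.29 did not pass the test (adjusted p = 0.311). Both were lower in immature than in mature cells of either culture, Socs3 by -5.54 and -2.26 and Socs1 by -3.56 and -1.61 (log2, IL-3 and TSLP cultures). Ptpn6, a phosphatase gene, was higher in TSLP mature cells (0.56 ± 0.18, adjusted p = 0.0317).

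Genes known to respond to IL-6 and LIF were tested for 14 of 18, and most of them also respond to other cytokines, IL-3 and TSLP included. In TSLP against IL-3 mature cells 8 were higher and 1 was lower, and in immature cells 10 were higher and 0 lower, where 24.3% and 13.3% of all genes were called in either direction. The medians were 0.76 and 0.91 on the log2 scale against 0.09 and 0.04 over all genes. Myc (1.79 ± 0.30, adjusted p = 0.00103) and the adhesion gene Icam1 (1.31 ± 0.36, adjusted p = 0.015) had the largest differences in mature cells, and the kinase gene Pim1 was lower (-0.72 ± 0.20, adjusted p = 0.0179). In immature cells Vegfa (2.54 ± 0.43, adjusted p = 0.00126) and Il4ra (2.402 ± 0.32, adjusted p = 0.000154) had the largest differences. In immature against mature cells, 10 were lower and 1 higher in IL-3 cultures and 6 lower and 0 higher in TSLP cultures, beside 46.2% and 25.1% of all genes called. Il4ra (-2.59), Nfil3 (-2.35) and, in the other direction, Myc (1.13, adjusted p = 0.00778) led in IL-3 cultures, and Junb (-1.62, adjusted p = 0.000102) and Cebpd (-1.37, adjusted p = 0.000378) in TSLP cultures.

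Genes of cytokine mRNA decay and stability, whose products bind or cleave mRNAs with AU-rich or stem-loop elements such as those of Il6, were tested for 11 of 11. Zfp36, which encodes the ATTTA-binding decay factor tristetraprolin, measured 2311, 2787 and 3744 CPM in IL-3 mature, 2501, 2829 and 2380 in TSLP mature, 237.2, 445.6 and 365.8 in IL-3 immature and 814.5, 1124 and 1177 CPM in TSLP immature libraries. As for Osm, the mature groups overlapped and lay above TSLP immature, which lay above IL-3 immature libraries. Zfp36 was higher in TSLP than in IL-3 immature cells (1.57 ± 0.25, adjusted p = 0.000829), as was Zc3h12a, which encodes the nuclease regnase-1 (1.18 ± 0.36, adjusted p = 0.0402). Of the 11 genes, 4 were higher and 0 lower in this comparison, beside 13.3% of all genes called in either direction. The part of these genes in the levels of the ligands was not tested. In immature against mature cells 5 of the 11 were lower and 2 higher in IL-3 cultures, and 4 were lower and 1 higher in TSLP cultures, beside 46.2% and 25.1% of all genes called. Zfp36 (-3.07) and Zfp36l1 (-2.36) were the lowest in IL-3 cultures and Zfp36 (-1.31) and Zfp36l2 (-0.95) in TSLP cultures, whereas Hnrnpd was higher in immature cells of both (0.83 and 0.88) and Khsrp in those of IL-3 cultures (0.84). Khsrp was also higher in TSLP than in IL-3 mature cells (0.59, adjusted p = 0.0151), the 1 gene of this list that was called there.

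**Figure D4:**
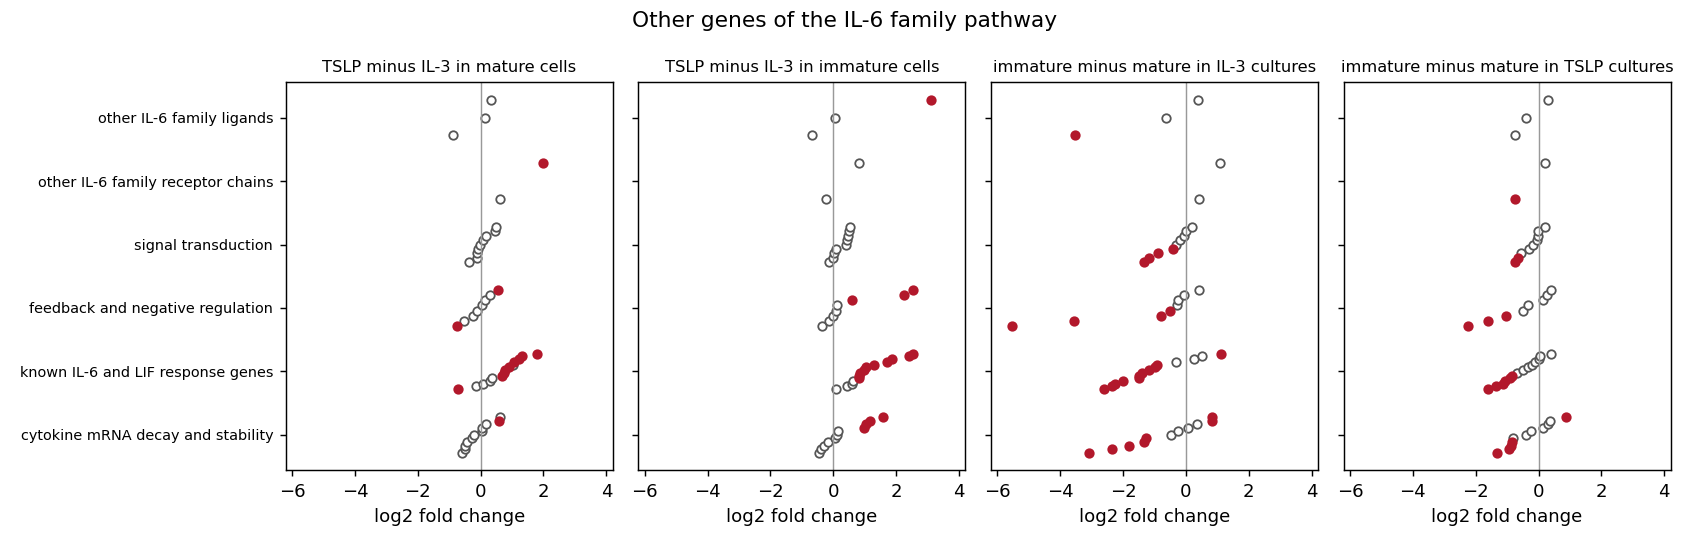
Log2 fold change of each tested gene of the 6 lists in the 4 pairwise comparisons, 1 point per gene. Red filled points passed the test and open points did not. Of the 47 genes, 18 were higher and 0 lower in TSLP than in IL-3 immature cells.

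Over all lists, 11 of the 47 genes were higher and 2 lower in TSLP than in IL-3 mature cells, or 27.7% called against 24.3% of all genes, a share near the background. With the ribosomal RNA rows left out the split was 8 higher and 6 lower. Leaving out IL-3 mature 3 left 4 called genes, leaving out IL-3 mature 2 left 5, leaving out TSLP mature 3 left 7, and leaving out TSLP mature 1 gave 15. In immature cells 18 were higher and 0 lower (38.3% against 13.3%), and 10 to 11 were called without IL-3 immature 2, TSLP immature 2 or TSLP immature 3. In immature against mature cells, 24 were lower and 3 higher in IL-3 cultures (57.4% against 46.2%) and 16 lower and 1 higher in TSLP cultures (36.2% against 25.1%, or 11 called without TSLP immature 1).

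**Figure D5:**
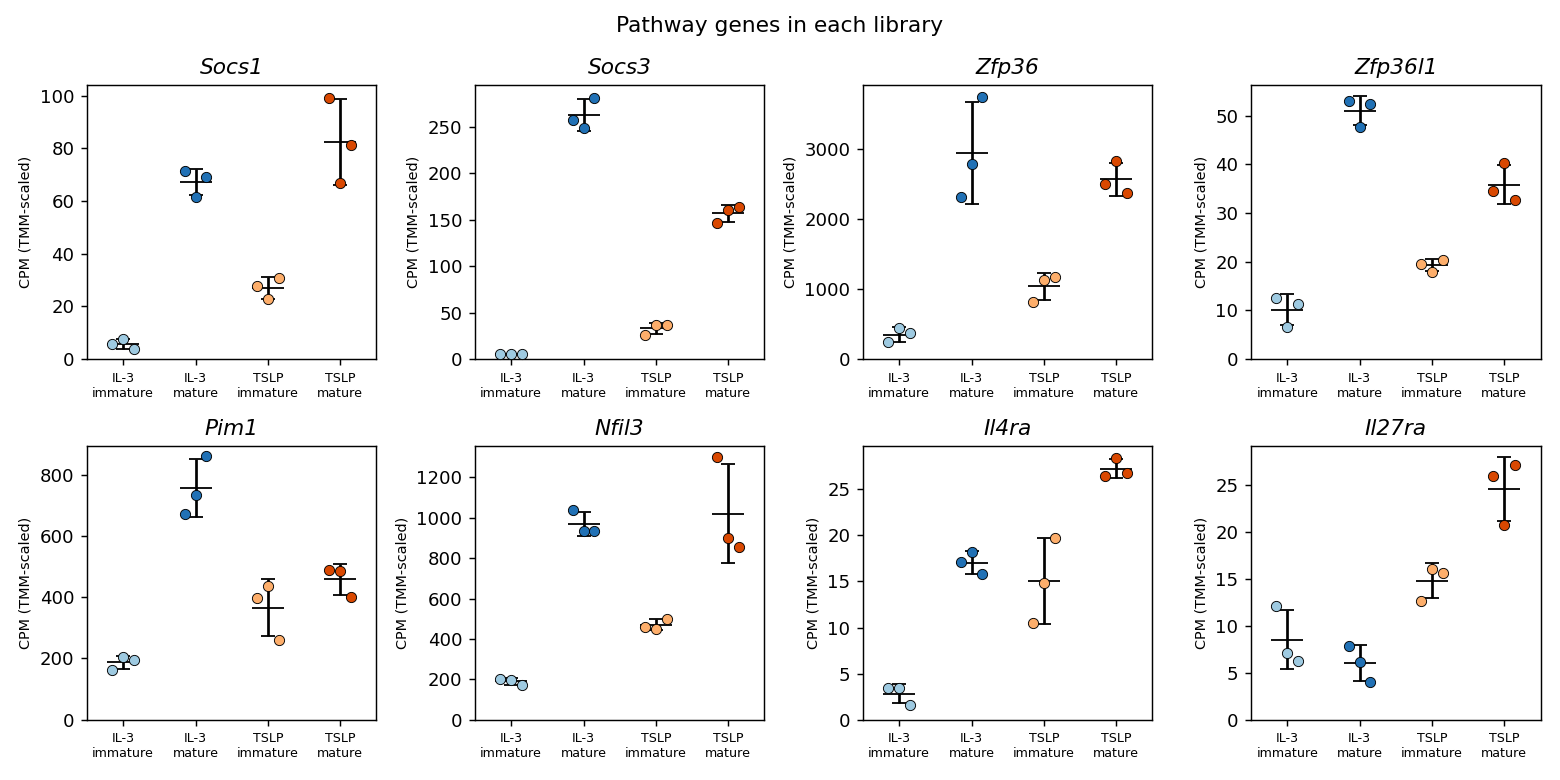
Level (CPM, TMM-scaled, linear axes from 0) of 8 pathway genes in the 4 groups, with 1 point per library and bars for the mean ± SD of 3 libraries. Socs3 in TSLP libraries lies above IL-3 at the immature stage (26.2 to 36.3 against 5.34 to 5.71 CPM) and below it at the mature stage (146.5 to 163.1 against 248.1 to 281.0 CPM).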

How the data were processed

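The members and gene lists were chosen with earlier results of these data known. Per the methods of the study, reads were trimmed with Cutadapt, aligned with Bowtie2 to mouse reference RNA (GRCm38) and counted per gene. The submitters' processing notes name the builds GRCm39 and mm10. The authors deposited raw counts per gene, with 1 column per library. Treatment of multiply aligned reads, strand and duplicates is not given in the sources used here. The row Rn45s was 1.00 to 1.02 times the sum of Rn18s and Rn28s1 in every library, so ribosomal reads may enter more than 1 row. An unnamed row holding the column total (50% of each column) was left out.

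Counts were tested with edgeR 4.0.16 in R 4.3.3 (quasi-likelihood F test, TMM scaling, filterByExpr with a minimum count of 10, 1 mean for each of 4 groups, no block). This left 10861 genes. Genes were called at a Benjamini-Hochberg adjusted p under 0.05. Values are CPM over effective library sizes. Folds are ratios of summed counts with 95% exact binomial intervals, which cover counting error only, as does the floor of 3 counts. Total counts were 1720065 to 3685285. A sample is a culture per the methods of the study. P-values rest on the spread between libraries of the same group, pooled over the 12 libraries of the fit and moderated across genes. The spread used between mature cells thus also draws on immature libraries. The fit was tested on simulated counts with known folds. Named genes were the members, up to 2 called genes per list, comparison and direction with the largest log2 fold change at a mean of at least 5 CPM, the 3 nearest by pattern and the 3 protein-coding neighbours on each side. Alternatives were DESeq2 1.42.0, other scalings and filters, a replicate block, each library left out and, added after seeing the data, the 3 ribosomal rows left out. Positions and principal transcripts come from GENCODE M21 (GRCm38), and promoters from RefSeq (GRCm38.p6), with an entry for 6 of the 7 members.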

Additional observations from a re-analysis of the deposited data

Results flagged for a closer look

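The stage difference (immature minus mature, log2) differed between TSLP and IL-3 cultures by the interaction test (edgeR, Benjamini-Hochberg adjusted) for Osm, by 1.75 (adjusted p = 0.00203), and for 7 of the 47 pathway genes tested. These were Socs3 (3.29, adjusted p = 4.49e-06), Socs1 (1.95, adjusted p = 0.00329), Zfp36 (1.77, adjusted p = 0.00859), Il4ra (1.73, adjusted p = 0.0222), Pim1 (1.69, adjusted p = 0.0035), Zfp36l1 (1.47, adjusted p = 0.0108) and Nfil3 (1.23, adjusted p = 0.0132). In all 8 genes the difference was positive, and immature cells lay closer to mature cells in TSLP than in IL-3 cultures. The RNA of the sort markers, Itga2 and Fcer1a, also differed less between the stages in TSLP cultures, and the part of the sort was not tested. All share the same 12 libraries, and 4.19% of all genes were called in this test. Groups of 3 libraries are too small for the test of single outlying samples.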

How the results depend on the processing

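Of 977 values under alternatives, 910 kept direction and side of the threshold, stayed within the spread or, for counts of called genes, within a fixed fold range. This includes levels of members with 1 library left out, which stay within the spread of 3 libraries by arithmetic and show nothing. Of the 329 member differences and call counts under settings other than leaving out a library, 318 stayed the same by these rules. The difference of Osm between mature cells turned to -0.0132 with DESeq2 size factors or the DESeq2 Wald test, -0.023 with a filter of 10 CPM, -0.0156 with only the groups compared, -0.0316 without Rn45s and -0.0719 without the 3 ribosomal rows, uncalled throughout. That of Il6 was called with upper-quartile factors (0.69), no filter (0.63) and DESeq2 (0.58). The 2634 genes called between mature cells became 1714 with only these groups fitted. Without Rn45s, Lif in TSLP immature cells was at 139.7 CPM, Osm at 618.9 in TSLP immature, 1430 in TSLP mature and 1462 in IL-3 mature cells, Il6 in IL-3 immature cells at 96.7 and Il6st in TSLP mature cells at 6.66 CPM. The cause was not tested, and fewer samples or genes enter some fits.

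With a replicate block, Il6 in mature cells was called (0.59, adjusted p = 0.0364, edgeR) and no other call of a member changed. Same-numbered libraries deviated together weakly (r from -0.08 to 0.39, median 0.0786, over 0.1 in 7 of 18 pairs). Pairs with other numbers had a median of -0.0456 and were over 0.1 in 2 of 36. The labels do not say whether same-numbered mature and immature libraries came from the same culture, and this check cannot exclude it. The numbers were not taken as pairs in the main fit.

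Leaving out 1 library gave these ranges. Between mature cells they were 1658 to 2968 called genes (fewest without IL-3 mature 2), 4 to 15 pathway genes, and log2 values of -0.0913 to 0.0577 for Osm, 0.41 to 0.73 for Il6 (called without TSLP mature 2) and 1.24 to 1.62 for Lifr. Between immature cells they were 588 to 2243 called genes (fewest without TSLP immature 3, most without TSLP mature 1), 10 to 22 pathway genes, and -0.42 to 1.23 for Il6st. In IL-3 cultures they were -2.60 to -1.26 for Il6st and -0.24 to 0.47 for Lifr. In TSLP cultures they were 1774 to 3456 called genes (fewest without TSLP immature 1), 11 to 18 pathway genes and -2.82 to -1.37 for Il6ra. For the interaction they were 240 to 723 called genes (fewest without IL-3 mature 2, most without TSLP mature 1) and -1.33 to 0.32 for Il6st. Receptor chains rest on at most 36 counts in a library, which limits what their differences can show.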
